A study of Mus musculus with 6 samples.

Results

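The genes described here are 43 components of TGF-beta and BMP signalling, of 55401 gene identifiers in the count table, chosen by name as ligands, extracellular regulators, receptors, Smads, feedback regulators and Id targets. Each of the 43 symbols matched 1 mouse Ensembl identifier. RNA was sequenced from ADC106, a mouse angiosarcoma cell line (a malignant tumour of vessel-lining cells), after transfection of a microRNA mimic, an RNA duplex made to load a chosen microRNA into Argonaute. One group, labelled WT, received the NC mimic and the other, labelled miR-497 overexpression, the miR-497 mimic, both at 12.5 nM, and RNA was taken on day 3. Each group had 3 libraries, and both groups share the cell line, so the values describe 1 line. The labels do not state what the NC sequence is, and untransfected cells were not analysed here. Nothing says that the libraries came from separate cultures, so p-values measure only the spread between these libraries, which may be technical.

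Ligands of this family are secreted dimers that bring type I and type II receptor kinases together. The type I receptor then phosphorylates Smad proteins: Smad2 and Smad3 after TGF-beta or activin, and Smad1, Smad5 and Smad9 after BMP. These join Smad4 and act on genes in the nucleus, among them the Id genes, which answer to BMP in many cells. Extracellular proteins hold ligands latent or trap them, and inhibitory Smads with Smurf ubiquitin ligases take receptors and Smads out of action. In endothelial cells the pathway is known for its role in vessel growth and quiescence, with Acvrl1 and Bmpr2 as receptors in which loss causes vascular disease.

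The total count per library ranged from 25777676 to 36159499. The 12 endothelial markers checked were all detected, and their summed level was 9273 to 9993 CPM in NC libraries and 9125 to 9536 CPM in miR-497 libraries (CPM, read counts relative to the scaled library size). Of these 12, 7 were higher and 4 lower with miR-497 by the test described below, from Emcn (log2 fold change 1.03) to Egfl7 (-0.94). That made 91.7% called, against 49.8% of all genes tested. Leukocyte markers summed to at most 3.13 CPM and epithelial markers to at most 4.71 CPM in any library, with Itgam and Cd3e at 0. The 8 fibroblast markers summed to 333 to 355 CPM with NC and 464 to 563 CPM with miR-497, with Lum at 0. Of the 6 tested, Col1a1 and Col1a2 were higher, while Col3a1, Thy1 and Pdgfrb were lower, and the median log2 fold change was -0.14. The share called was 83.3%, against the same 49.8% of all genes. The 7 smooth muscle and pericyte markers summed to 1137 to 1146 and 940 to 975 CPM. Mcam made up most of that sum and fell from 1083 to 873 CPM on average, while Acta2 rose from 37.1 to 70.3 CPM. These were the 1 lower and 1 higher call of the 7, or 28.6% called. Myh11, Cnn1, Des and Rgs5 were near the floor, at 0.44, 0.83, 0.40 and 0.40 CPM on average with NC. The median log2 fold change of 0.22 was that of Cnn1 (standard error 0.465), which was not called. The part of these markers in the results below was not tested. In bulk RNA, fewer cells of a kind and less RNA per cell cannot be told apart.

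Of the 43 genes, 42 passed the filter on low counts and were tested, and 20 passed edgeR's quasi-likelihood test, with an adjusted p (Benjamini-Hochberg, over all genes) under 0.05. That is 47.6% of those tested, against 49.8% of all 14661 genes tested. The calls were 7 higher and 13 lower with miR-497, or 16.7% and 31%, where 23.8% and 26% of all genes were called in these directions. The list therefore moved about as often as the transcriptome as a whole. Its median log2 fold change (miR-497 over NC throughout) was -0.09, beside -0.02 for all genes. At least 2-fold changes were called for 4 genes, 9.52% against 8.82% of all genes, and changes of at least 0.5 on the log2 scale for 7 genes, 16.7% against 24.7%. The libraries of the groups did not overlap for 24 genes (57.1%), against 57.4% of all genes. Of these, 10 were higher and 14 lower (23.8% and 33.3%), where 27.8% and 29.6% of all genes were. The split of calls depended on scaling: with upper-quartile scaling it was 12 higher and 11 lower, so that 52.2% of calls were higher in place of 35.0%. This scaling added Tgfbr2, Acvr1b, Bmp1, Smad2 and Smad5 to the higher genes and took Ski and Id1 from the lower ones.

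**Figure D1:**
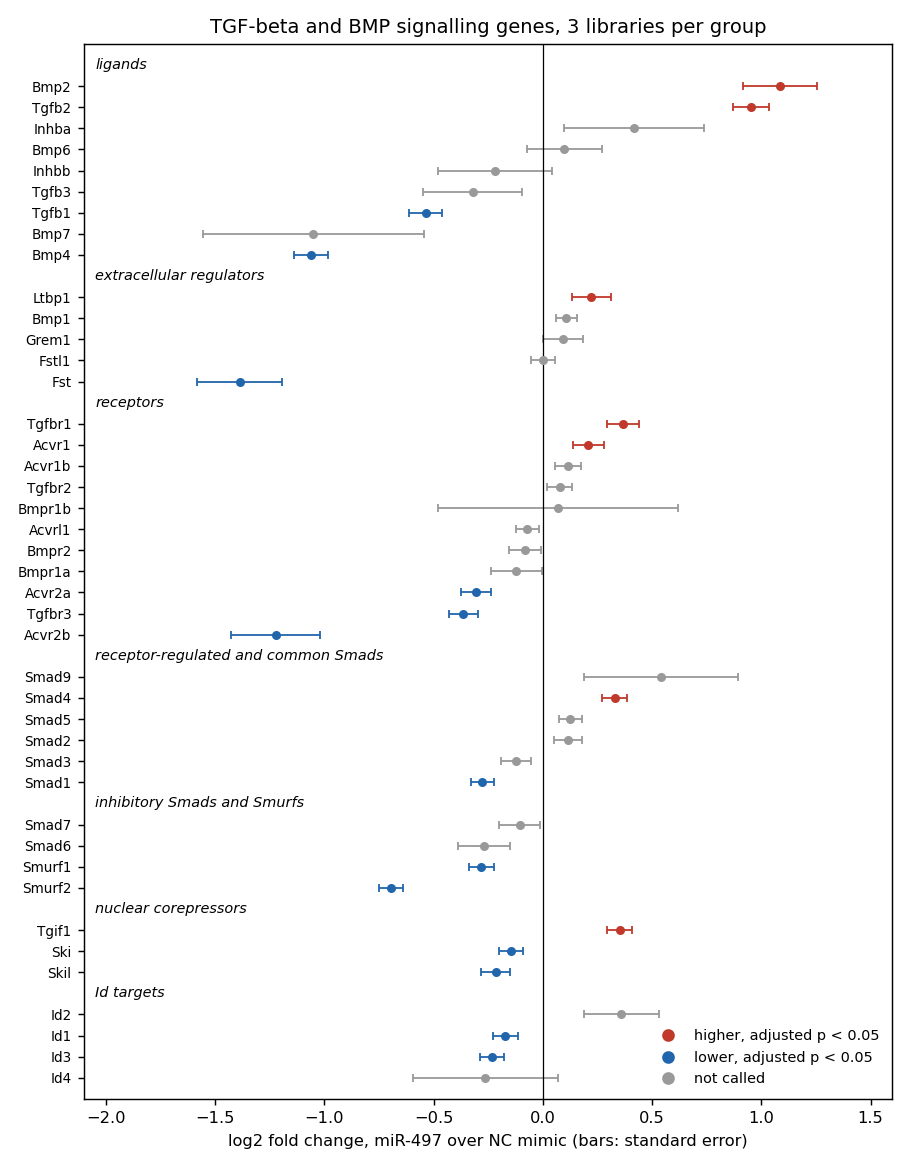
Log2 fold change (x axis, miR-497 over NC mimic) with its standard error for the 42 tested genes, arranged by role (y axis). Bmp2 and Tgfb2 lie farthest to the right among called genes, at 1.08 and 0.95, and Fst lies farthest to the left at -1.39.

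The strand of miR-497 expected to guide Argonaute is shown first, because its seed (bases 2 to 8, in capitals) defines the sites searched in the pathway's transcripts. It is the RefSeq sequence on GRCm38.p6, chr11:70234730-70234751, plus strand. The sequence of the transfected mimic was not given in the sources used here.
mmu-miR-497a-5p: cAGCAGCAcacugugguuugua

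The same seed is carried by miR-15a, miR-15b, miR-16 and miR-195a, among others. A site was TGCTGCT (7mer-m8), TGCTGCTA (8mer) or GCTGCTA (7mer-A1), read on the transcript strand in the longest annotated 3' UTR of the gene. Such a match is a description of the letters and not a measured binding site. A 7mer or 8mer stood in 21 of the 43 genes, and all 21 were among the 42 tested. Over 12860 tested genes with a 3' UTR, 28.1% had such a match, against 48.8% of the 43. The 3' UTRs of the pathway genes were also longer, with a median of 2356 bases against 1187 for all tested genes, and the part of length in that share was not tested. With the shortest annotated 3' UTR, 11 of the 43 genes kept a site, or 26.2% of the 42 tested, against 16.6% of all tested genes.

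The pathway genes that were lower with miR-497 and had a site were Acvr2b, Smurf2, Tgfbr3, Acvr2a, Smurf1, Smad1, Skil and Ski. For each, 1 site of its best class is shown with the bases before it, 24 bases in all, with the match in capitals. Acvr2a, Smurf1 and Ski had 3 sites each, Acvr2b and Smad1 had 2 each, and Smurf2, Tgfbr3 and Skil had 1 each. The 7mer-m8 shown for Acvr2a is at base 499 of its 3' UTR, and another is at base 2500. The genes are given from the largest fall to the smallest, so that site and response can be read together.
Acvr2b, 7mer-m8: gcggtgaatgttcttaaTGCTGCT
Smurf2, 7mer-A1: ccatgaggacacactcaGCTGCTA
Tgfbr3, 7mer-m8: ctttttttttttttttaTGCTGCT
Acvr2a, 7mer-m8: cttgtgaatgtgtagtgTGCTGCT
Smurf1, 8mer: gtcctgtttgaagtgcTGCTGCTA
Smad1, 7mer-m8: tgagcgcaatgtgtgtgTGCTGCT
Skil, 7mer-m8: gaagtgttctgcttgggTGCTGCT
Ski, 8mer: ccctccagtcctacgcTGCTGCTA

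On GRCm38 the capitals lie at chr9:119434680-119434686 (Acvr2b, plus strand), chr11:106822454-106822460 (Smurf2, minus), chr5:107109325-107109331 (Tgfbr3, minus) and chr2:48900287-48900293 (Acvr2a, plus). The others lie at chr5:144876719-144876726 (Smurf1, minus), chr8:79341764-79341770 (Smad1, minus), chr3:31120399-31120405 (Skil, plus) and chr4:155154297-155154304 (Ski, minus). Among these 8 genes, taken because they were called lower, the class of the best site did not order the falls. Over all tested genes the median log2 fold change was -0.28 where the best site was an 8mer. It was -0.14 for 7mer-m8 and for 7mer-A1. Among the tested pathway genes it was -0.15 for the 3 with an 8mer and -0.08 for the 17 with a 7mer-m8. The 8mers of Smurf1 and Ski went with log2 fold changes of -0.28 and -0.15, and the 7mers of Acvr2b and Smurf2 with -1.22 and -0.69. In Acvr2b, Smurf1, Smurf2, Smad1, Skil and Tgfbr3 the shortest annotated 3' UTR held no site. Which 3' UTR these cells use was not tested.

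Fstl1, a secreted follistatin-like glycoprotein chosen for contrast after its values were seen, carried 3 sites in a 3' UTR of 2588 bases and had the same mean level in both groups, 847 ± 38.1 CPM with NC and 846 ± 18.6 CPM with miR-497 (SD, n = 3).
Fstl1, 7mer-m8 at base 399 of the 3' UTR: tttgtagggaggaacccTGCTGCT
Fstl1, 7mer-m8 at base 1808: gccatcatcaaaagtttTGCTGCT
Fstl1, 7mer-A1 at base 2100: tgaaccgttcatgaaaaGCTGCTA

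These lie at chr16:37834325-37834331, chr16:37835734-37835740 and chr16:37836026-37836032, all on the plus strand. The log2 fold change of Fstl1 was -0.0009 (standard error 0.0552, edgeR adjusted p = 0.99). Smad5, a BMP-activated Smad, had the most matches of the pathway genes (4, of which a pair overlaps) and a log2 fold change of 0.13, and was not called. Tgfbr1 and Smad4, each with 1 site in the longest 3' UTR, rose. In both, the shortest annotated 3' UTR (30 and 257 bases) held no site.

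Across the 21 tested genes with a site, 8 were lower, 2 higher and 11 not called, and the median log2 fold change was -0.12. Over all 3617 tested genes with a site the median was -0.17, with 40.9% lower and 18.2% higher. Of the 21 pathway genes without a site, 5 were lower, 5 higher and 11 not called, with a median of 0.09, beside 0.02 for the 9243 tested genes without a site. The pathway genes with a site were thus lower in 38.1% of cases and those without in 23.8%, close to the 40.9% and 23.5% of all genes. This order of the lower shares rests on the longest 3' UTR. With the shortest, 18.2% of the 11 pathway genes with a site (2 genes) were lower and 35.5% of the 31 tested without. The medians were -0.08 and -0.12, while for all genes the shares lower were 44.4% and 25.3%. The shares higher with the shortest 3' UTR were 0% with a site and 22.6% without for pathway genes, and 16.9% and 27.1% for all genes. Of the 7 genes that changed by at least 0.5 on the log2 scale, Acvr2b and Smurf2 had a site. Fst had only the 6mer inside these matches, and Tgfb1, Tgfb2, Bmp2 and Bmp4 had no match at all.

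**Figure D2:**
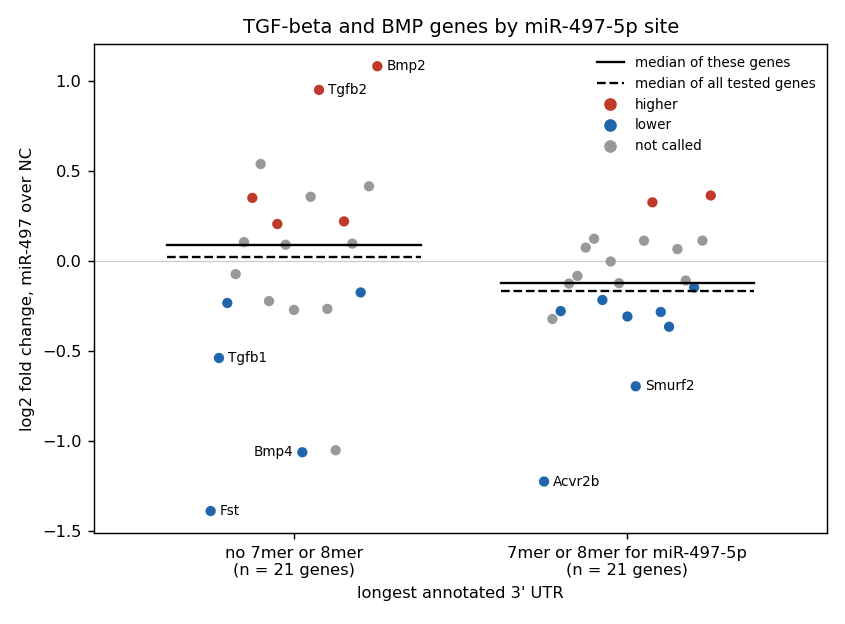
Log2 fold change (y axis, miR-497 over NC) of each tested pathway gene, with no 7mer or 8mer match to the seed (left, n = 21) or with such a match (right, n = 21) in the longest 3' UTR. Solid lines are medians of the points and dashed lines medians over all tested genes of that class. The solid lines lie at 0.09 and -0.12 and the dashed lines at 0.02 and -0.17.

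Ligand genes changed in opposite directions. Bmp2 and Tgfb2 rose, Bmp4 and Tgfb1 fell, and the other 5 of the 9 ligands did not pass the test. This made 44.4% called, near the 49.8% of all genes. TGF-beta 1 and TGF-beta 2 signal through the same receptors, with TGF-beta 2 depending more on the co-receptor Tgfbr3. Per length of exon, Tgfb1 was the most abundant of the 9 ligands with NC, at 29.4 ± 2.13 CPM per kb, followed by Bmp4 at 22.3 ± 0.841, Tgfb2 at 2.59 ± 0.0565 and Bmp6 at 1.72 ± 0.143 (SD, n = 3). With miR-497 the same ligands stood at 20.3 ± 2.27, 10.7 ± 0.986, 5.01 ± 0.286 and 1.84 ± 0.442 CPM per kb, and Bmp2 at 2.56 ± 0.472. Tgfb1 and Bmp4 thus had the highest levels in both groups, by a smaller margin with miR-497.

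Bmp4 (chr14:46383520-46390669, minus strand), a BMP ligand made by endothelium, stood at 52.0, 49.9 and 48.2 CPM in NC libraries 1 to 3 and at 23.2, 26.5 and 22.2 CPM in miR-497 libraries 1 to 3. The highest miR-497 library lay far below the lowest NC library. It fell 2.09-fold, a log2 fold change of -1.06 (standard error 0.0783, edgeR adjusted p = 9.7e-09). Bmp2 (chr2:133552159-133562885, plus strand), its close relative, stood at 4.10, 4.63 and 4.08 CPM with NC and 10.2, 9.91 and 7.15 CPM with miR-497. The groups did not overlap, and miR-497 library 3 was the lowest of its group. Bmp2 rose 2.12-fold, with a log2 fold change of 1.08 (standard error 0.168, edgeR adjusted p = 4.3e-05), from a level per length that was lower than that of Bmp4 in both groups.

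Tgfb1 (chr7:25687002-25705077, plus strand) stood at 140, 160 and 144 CPM with NC and at 112, 106 and 89.5 CPM with miR-497. All 3 miR-497 libraries lay under the NC libraries, with a log2 fold change of -0.54 (standard error 0.0738, edgeR adjusted p = 1.2e-05). Tgfb2 (chr1:186622792-186705989, minus strand) stood at 15.4, 14.7 and 14.9 CPM with NC and at 27.4, 30.7 and 28.9 CPM with miR-497. The NC libraries differed little, and Tgfb2 was 1.94-fold higher in miR-497 libraries, a log2 fold change of 0.95 (standard error 0.0841, edgeR adjusted p = 7.9e-08). Tgfb3, with 1 site, had a log2 fold change of -0.32 (standard error 0.226, edgeR adjusted p = 0.26), and exons of other genes on the opposite strand cover 12.4% of its exon bases, which matters if strand was not used in counting.

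The remaining ligands were weakly expressed. Inhba and Inhbb, which encode activin subunits, had 34 to 78 and 52 to 106 counts per library, and their log2 fold changes were 0.42 (standard error 0.320) and -0.22 (standard error 0.261). Bmp6 had a log2 fold change of 0.10 (standard error 0.173), and exons of Txndc5 on the opposite strand cover 5.74% of its exon bases. Bmp7, with 5 to 36 counts, had -1.05 with a wide error (standard error 0.505, edgeR adjusted p = 0.096). Bmp7 was thus not called at a change near the size seen in Bmp2, which had 115 to 315 counts per library.

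**Figure D3:**
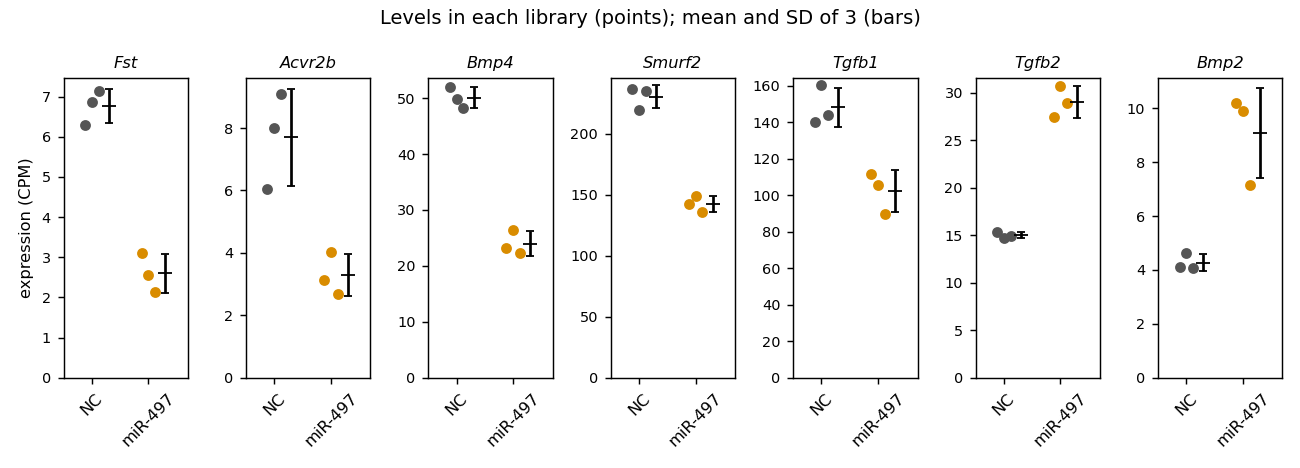
Expression in CPM (y axis, starting at 0 in each panel) in each of the 3 NC and 3 miR-497 libraries (x axis) for the 7 genes with an adjusted p under 0.05 and an absolute log2 fold change of at least 0.5; points are libraries and bars the mean with SD. The groups are separate in every panel, from Fst (6.77 and 2.60 CPM on average) to Bmp2 (4.27 and 9.09 CPM).

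Of the 5 extracellular regulators tested, 40% were called, against 49.8% of all genes. Among them the activin trap follistatin, encoded by Fst, showed the largest change of all 42 tested genes. Fst (chr13:114452290-114458951, minus strand) stood at 6.30, 6.87 and 7.14 CPM with NC and at 3.10, 2.55 and 2.13 CPM with miR-497. The groups were well apart, and Fst fell 2.62-fold, a log2 fold change of -1.39 (standard error 0.194, edgeR adjusted p = 1.5e-05). Grem1, a BMP antagonist, was expressed at 79.5 ± 4.96 CPM with NC and 84.9 ± 14.4 CPM with miR-497 (SD, n = 3), and did not pass (log2 fold change 0.09, standard error 0.0930, edgeR adjusted p = 0.44). Without miR-497 library 3, its lowest, Grem1 was called higher (0.22, edgeR adjusted p = 0.026).

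Bmp1, a protease that cuts procollagens and the BMP antagonist chordin, was higher in every miR-497 library, at 230 ± 0.264 and 248 ± 2.93 CPM (SD, n = 3), but its edgeR adjusted p was 0.078 (log2 fold change 0.11). It was called higher with genes of a mean count of at least 50 (edgeR adjusted p = 0.048), with upper-quartile scaling (0.0094) and by the DESeq2 Wald test (adjusted p = 0.031). Ltbp1, which holds TGF-beta latent in the matrix, passed narrowly while its groups overlapped, at 50.9, 57.0 and 56.6 CPM with NC and 73.6, 63.6 and 54.9 CPM with miR-497 (log2 fold change 0.22, standard error 0.0890, edgeR adjusted p = 0.048). That call was lost without NC library 1 or 2 (edgeR adjusted p = 0.19 and 0.057) and without miR-497 library 1 or 2 (0.29 and 0.073). Nog, which encodes the BMP antagonist noggin, was the 1 gene not tested, with 4, 0 and 10 counts in NC libraries and 0 in all 3 miR-497 libraries. A count of 0 allows up to 3 counts, or 0.119 CPM in miR-497 library 1, the shallowest.

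Against 49.8% of all genes, 45.5% of the 11 receptor genes were called: 2 rose, 3 fell and 6 did not pass the test. The most abundant per length were Acvrl1 (also called ALK1, the endothelial type I receptor) at 136 ± 3.98 CPM per kb with NC and 130 ± 2.27 with miR-497, and Tgfbr2, the type II receptor for TGF-beta, at 82.5 ± 3.90 and 87.0 ± 3.00 (SD, n = 3). Neither was called, with log2 fold changes of -0.07 (standard error 0.0520) and 0.08 (standard error 0.0560), although Tgfbr2 had 2 sites. The next receptors with NC were Acvr1b at 17.1 ± 0.745, Tgfbr3 at 12.7 ± 0.510 and Tgfbr1 at 12.3 ± 0.887 CPM per kb, and the last 2 did not differ beyond their spread. Bmpr2, the BMP type II receptor, had a log2 fold change of -0.08 (standard error 0.0726) and, of the alternatives run, was called lower only without miR-497 library 2 (-0.19, edgeR adjusted p = 0.014). Bmpr1b was at the edge of detection, with 8 to 20 counts per library.

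The activin type II receptor Acvr2b (chr9:119402118-119434995, plus strand) fell most among receptors. It stood at 6.03, 7.997 and 9.09 CPM with NC and at 3.14, 4.03 and 2.69 CPM with miR-497. The NC libraries were uneven, but none reached down to the miR-497 libraries, and the fall was 2.34-fold (log2 fold change -1.22, standard error 0.202, edgeR adjusted p = 7.9e-05). Its paralog Acvr2a, with 3 sites and an exon overlap of 7.84% with Orc4 on the other strand, fell from 37.4 ± 1.42 to 30.2 ± 0.493 CPM (SD of 3 libraries; log2 fold change -0.31, standard error 0.0690, edgeR adjusted p = 0.0013).

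The co-receptor betaglycan, encoded by Tgfbr3, fell from 83.1 ± 3.34 to 64.6 ± 4.66 CPM (SD of 3 libraries; log2 fold change -0.36, standard error 0.0658, edgeR adjusted p = 0.00019). Of the type I receptors, Tgfbr1 rose from 80.2 ± 5.79 to 103 ± 10.0 CPM (SD of 3 libraries; 0.37, standard error 0.0722, edgeR adjusted p = 0.00043). Acvr1 (also called ALK2) rose from 35.9 ± 1.99 to 41.4 ± 1.59 CPM (SD of 3 libraries; 0.21, standard error 0.0714, edgeR adjusted p = 0.023). The call for Acvr1 was lost without NC library 2 (edgeR adjusted p = 0.11) and without miR-497 library 1 or 2 (0.065 and 0.064). Acvr1b and Bmpr1a, with 2 sites each, had log2 fold changes of 0.11 (standard error 0.0580) and -0.12 (standard error 0.117) and were not called.

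**Figure D4:**
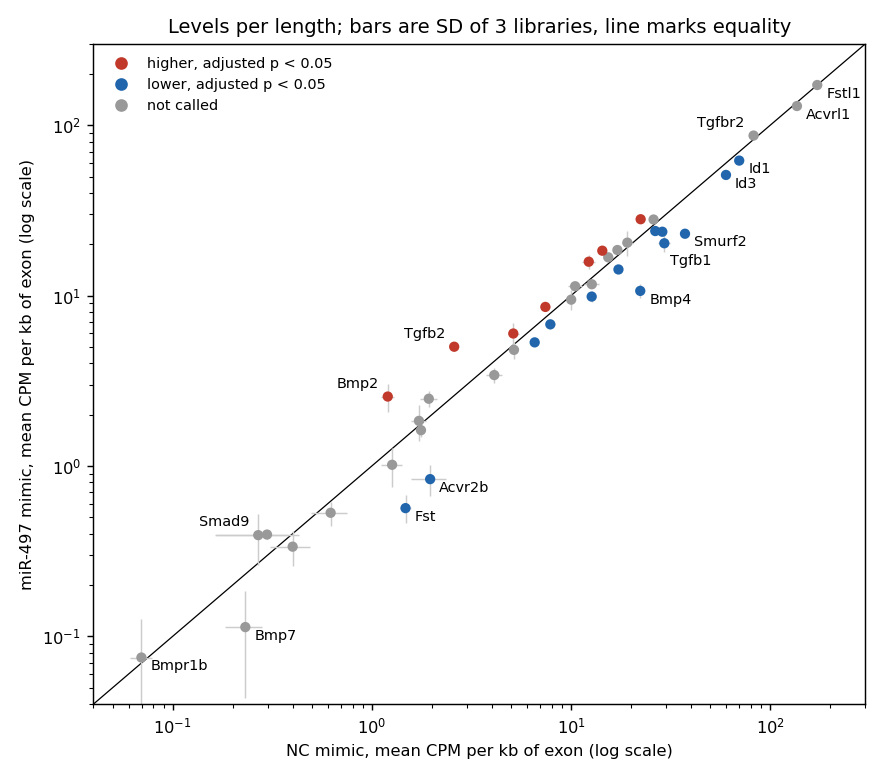
Mean level per length of exon (CPM per kb, log scales) with NC (x axis) and miR-497 (y axis) for the 42 tested pathway genes; bars are the SD of 3 libraries and the line marks equal levels. Fstl1, Acvrl1 and Tgfbr2 are highest and lie near the line, and Fst, Acvr2b and Bmp4 lie well under it.

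Of the Smads that carry the signal, Smad1, which answers to BMP, fell, and Smad4, the partner shared by both branches, rose. The other 4 of these 6 were not called, which made 33.3% called against 49.8% of all genes. Smad1 went from 180 ± 6.25 to 148 ± 4.07 CPM (SD of 3 libraries; log2 fold change -0.28, standard error 0.0515, edgeR adjusted p = 0.00025). Smad4 stood at 87.3, 82.2 and 79.6 CPM with NC and at 104 CPM in each miR-497 library (0.33, standard error 0.0558, edgeR adjusted p = 0.00011). The TGF-beta Smads were not called, with 0.12 (standard error 0.0630) for Smad2 and -0.12 (standard error 0.0680) for Smad3, which had 3 sites. Smad5 was higher in every miR-497 library but missed the threshold (0.13, standard error 0.0527, edgeR adjusted p = 0.059). Leaving out NC library 3 brought Smad2 and Smad5 past it (edgeR adjusted p = 0.02 and 0.049), as did leaving out miR-497 library 3 for Smad5 (0.033) and DESeq2 size factors (0.047). Smad9, with 34 to 77 counts per library, had 0.54 (standard error 0.352, edgeR adjusted p = 0.22).

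Of the inhibitory arm, both Smurf ubiquitin ligases fell and neither inhibitory Smad was called. This made 50% called, near the 49.8% of all genes. Smurf2 (chr11:106820066-106920715, minus strand) stood at 237, 219 and 235 CPM with NC and at 142, 149 and 136 CPM with miR-497. The spread within each group was small beside the gap, and Smurf2 fell 1.62-fold (log2 fold change -0.69, standard error 0.0551, edgeR adjusted p = 2.3e-08). Smurf1, with an 8mer, fell from 110 ± 4.37 to 90.2 ± 4.28 CPM (SD of 3 libraries; -0.28, standard error 0.0574, edgeR adjusted p = 0.00057). Smad6 was lower in every miR-497 library but did not pass (-0.27, standard error 0.118, edgeR adjusted p = 0.068), except when NC library 2 was left out (0.049). Smad7, which blocks TGF-beta receptors and has an 8mer, had a log2 fold change of -0.11 (standard error 0.0935, edgeR adjusted p = 0.36), and miR-497 library 3 at 24.5 CPM was above all NC libraries.

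The 3 nuclear corepressors were all called (100%, against 49.8% of all genes), with small changes. Tgif1 rose from 80.8 ± 3.50 to 103 ± 3.15 CPM (SD of 3 libraries; log2 fold change 0.35, standard error 0.0570, edgeR adjusted p = 6.5e-05). Ski and Skil, which bind Smads and silence their target genes, fell by 0.15 (standard error 0.0552, edgeR adjusted p = 0.037) and by 0.22 (standard error 0.0662, edgeR adjusted p = 0.012) on the log2 scale. The call for Ski was lost without NC library 1, 2 or 3 (edgeR adjusted p = 0.076, 0.055 and 0.15) and without miR-497 library 2 or 3 (0.088 and 0.16), and with DESeq2 size factors (0.073). That for Skil was lost without NC library 3 or miR-497 library 3 (0.064 and 0.066).

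Id genes encode inhibitors of helix-loop-helix transcription factors and serve as readouts of BMP signalling. Id1 and Id3 were strongly expressed, at 69.9 ± 1.14 and 60.0 ± 2.42 CPM per kb with NC and 62.0 ± 1.87 and 51.1 ± 0.60 with miR-497 (SD, n = 3). Both fell slightly, with log2 fold changes of -0.17 (standard error 0.0573, edgeR adjusted p = 0.019) for Id1 and -0.23 (standard error 0.0544, edgeR adjusted p = 0.0019) for Id3. Without NC library 2 or miR-497 library 3, the call for Id1 was lost (edgeR adjusted p = 0.099 and 0.074). Id2, at 4.71 ± 0.450 and 6.05 ± 0.646 CPM (SD, n = 3), was higher in every miR-497 library without passing (0.36, standard error 0.171, edgeR adjusted p = 0.093). Id4, with 33 to 71 counts per library, had -0.26 (standard error 0.332). Of the 4 Id genes, 50% were called, near the 49.8% of all genes, and none has a site.

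Other genes of the pathway were taken from 5 lists with 123 genes. The lists were chosen with earlier results of these data known, so their shares called are descriptive only. Of 26 reported transcriptional targets, 25 were tested, with 9 higher, 8 lower and a median log2 fold change of 0.11, so that 68% were called against 49.8% of all genes. Ccn2 (connective tissue growth factor), with 1 site, fell from 444 ± 4.63 to 173 ± 10.2 CPM (log2 fold change -1.36, standard error 0.0555, edgeR adjusted p = 8.8e-12). Col1a2, a collagen chain, rose from 129 ± 5.96 to 286 ± 26.3 CPM (1.15, edgeR adjusted p = 4.4e-10), and Tagln (transgelin) from 2.94 ± 0.244 to 5.93 ± 1.24 CPM (1.01, edgeR adjusted p = 0.00056; SD of 3 libraries). The reported targets thus did not move in 1 direction. Col1a1, Col1a2 and Col3a1 of this list are also among the fibroblast markers above, where the first 2 were higher and Col3a1 lower.

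Of 31 extracellular binding, latency and activation genes, 22 were tested, with 8 higher and 10 lower and a median of -0.23, which makes 81.8% called against 49.8% of all genes. Ltbp2, a matrix relative of Ltbp1, rose from 11.5 ± 1.58 to 30.1 ± 5.43 CPM (log2 fold change 1.38, edgeR adjusted p = 1.2e-07). Crim1, a membrane protein that binds BMPs and has 2 sites, fell from 194 ± 14.1 to 89.5 ± 2.95 CPM (-1.12, edgeR adjusted p = 1.8e-10). Of the 31 tested intracellular cofactors and regulators, 8 were higher and 6 lower (median -0.01), or 45.2% called, near the share of all genes. Among them Stub1, a chaperone-linked ubiquitin ligase with 2 sites, fell from 81.6 ± 1.57 to 37.5 ± 1.82 CPM (-1.12, edgeR adjusted p = 4.8e-10; SD of 3 libraries). Of 9 tested co-receptors and decoys, 4 were higher and 2 lower (median 0.18, 66.7% called), with Tmeff1 at 2.91 ± 0.493 and 8.62 ± 0.883 CPM (1.57, edgeR adjusted p = 1.5e-06). Of 23 other ligands of the family, 6 passed the filter on counts. The edgeR and DESeq2 tests called 0 of them and limma voom 1 (Gdf15), while 2 (Gdf11 and Gdf15) had an unadjusted edgeR p under 0.05.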

How the data were processed

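The deposited table held raw counts of reads per gene for 6 libraries, 1 column each, not normalized by the authors. Per the submitters' processing notes, STAR 2.5.4b, featureCounts, Subread 1.6.1, edgeR 3.32.1 and GRCm38 were used; their roles, the annotation release, the strand setting and the handling of multiply aligned reads are not given in the sources used here. Groups and replicate numbers came from the sample titles.

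Symbols, exon lengths and 3' UTRs came from GENCODE M21 (GRCm38), which matched 55141 of 55401 identifiers. Genes were filtered with filterByExpr (minimum count 10, minimum total 15), scaled by TMM and tested with edgeR 4.0.16 in R 4.3.3 (quasi-likelihood F-test, 2-sided, group as the only term, threshold 0.05). CPM used TMM-scaled libraries, and CPM per kb divided it by merged exon length. The standard error was the log2 fold change divided by the square root of F. The count floor covers counting error only.

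Full values were given for pathway genes with an adjusted p under 0.05 and an absolute log2 fold change of at least 0.5, and other list genes were named from an adjusted p under 0.05, a change of at least 1 and a mean log2 CPM of at least 2. Some genes that meet this rule or belong to these lists enter the counts and are not reported here by name. Members and lists were chosen with earlier results of these data known. Alternatives were DESeq2 size factors, upper-quartile scaling, no filter, a mean count of at least 50, DESeq2 1.42.0, limma 3.58.1 voom, a replicate block, each library left out, the shortest 3' UTR and 8mers only. On simulated counts (14385 genes, 100 changed at each fold), edgeR recovered 63% of 1.5-fold and 76% of 2-fold changes. Far fewer genes changed there than the 7307 called in the data, and the adjusted threshold depends on that number. The rates therefore do not give the sensitivity of this comparison.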

Additional observations from a re-analysis of the deposited data

How the results depend on the processing

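Over 543 pairs of pathway gene and alternative (42 genes, 13 alternatives), 491 kept direction and side of the threshold, 23 lost the call, 16 gained it and 13 changed sign. The 7 called genes with an absolute change of at least 0.5 kept direction and an adjusted p under 0.05 in each alternative, though the change of Tgfb1 was -0.492 with upper-quartile scaling and -0.603 to -0.447 with 1 library left out. The count of higher genes rose from 7 to 12 with upper-quartile scaling and was 5 to 9 with 1 library left out at a time. Without the filter on counts, Nog was also called lower. Sign changes concerned genes near 0 or with few counts. Fstl1 was at 0.014 with DESeq2 size factors and with the DESeq2 test, at 0.046 with upper-quartile scaling, at 0.008 with a mean count of at least 50, and at 0.045, 0.015 and 0.002 in fits with 1 library left out. Bmpr1b was at -0.129 with voom and ran from -0.601 to 0.364 across fits that left out 1 library, Grem1 from -0.027 to 0.217 and Bmp6 from -0.080 to 0.260. The number of genes with a site was 21, or 11 with the shortest 3' UTR and 3 with 8mers only. The median of genes with a site was -0.081 and -0.146 under these and that of genes without -0.122 and -0.071, so the shortest 3' UTR turned their order. With the longest 3' UTR and single libraries left out, the median of genes without a site ran from -0.064 to 0.107. The cause was not tested.

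Libraries with the same number deviated from their group means with correlations of -0.12, -0.04 and -0.13, so equal numbers were not taken to pair libraries. With the replicate block, 6 genes were higher and 12 lower, Ski and Ltbp1 losing their calls (edgeR adjusted p = 0.078 and 0.067) and Bmpr1b at -0.031. Depth limits Bmp7, Bmpr1b, Smad9, Id4, Inhba and Nog most.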
